A study of Mus musculus with 12 samples.

Results

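RNA levels of Ahnak, Lmna, Vim, S100a4, S100a6, S100a10, S100a11, Anxa1, Anxa2 and Lgals1 were followed in LSKs of the bone marrow (BM). Their products include proteins of the cell cortex, the plasma membrane and the nuclear lamina, a cytoplasmic intermediate filament and a secreted lectin. The 10 genes were taken by symbol from a deposited table of 53465 genes, and all 10 passed the filter on low counts in every comparison. They were named by family with earlier results of these libraries in view, so they count as selected on their own fold changes between the groups. Those fold changes are given here without p-values. Counts of the 10 past a threshold on adjusted p and fold change describe them and test nothing. LSKs (Lin- Sca-1+ c-Kit+) are the BM fraction that holds hematopoietic stem cells (HSCs) and multipotent progenitors. RNA-seq libraries came from 4 groups, with 3 libraries in each: untreated littermate Tespa1+/+ mice, untreated Tespa1-/- mice, and both genotypes 9 days after 5-fluorouracil (5-FU), a drug that kills dividing cells. Tespa1-/- mice carried the B6.129S-Tespa1tm1Smoc allele, a germline knockout, on a C57BL/6 background after more than 6 generations of backcrossing. The mice were male and 8 to 10 weeks old, and 5-FU was given as 1 injection of 150 mg/kg. The labels do not say how many mice went into a library, so the spread between libraries may be partly technical.

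Ahnak is a giant scaffold protein that lies under the plasma membrane and binds a complex of annexin A2 and S100A10. Annexins bind membrane phospholipids when calcium rises, S100 proteins are small calcium sensors that pair with annexins and other partners, and both take part in membrane repair and in exocytosis. Lamin A and C, the products of Lmna, are nuclear filaments that set the stiffness of the nucleus, and in HSCs and their progeny their amount is known to differ with lineage and with the ability to migrate. Vimentin, the product of Vim, is the main cytoplasmic intermediate filament of mesenchymal and blood cells, and galectin-1, the product of Lgals1, is a secreted lectin that binds sugars on the cell surface.

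The genes lie on 5 chromosomes in GRCm38, and all are protein coding. Ahnak (ENSMUSG00000069833) lies at chr19:8989284-9076919 on the + strand and Anxa1 (ENSMUSG00000024659) at chr19:20373428-20390944 on the - strand. Chromosome 3 holds Lmna (ENSMUSG00000028063) at chr3:88480147-88509956 on the - strand. It also holds the S100 genes, all on the + strand, with S100a4 (ENSMUSG00000001020) at chr3:90603771-90606045, S100a6 (ENSMUSG00000001025) at chr3:90612882-90624181, S100a11 (ENSMUSG00000027907) at chr3:93520488-93526287 and S100a10 (ENSMUSG00000041959) at chr3:93555080-93564643. Vim (ENSMUSG00000026728) lies at chr2:13573927-13582826, Anxa2 (ENSMUSG00000032231) at chr9:69453620-69491795 and Lgals1 (ENSMUSG00000068220) at chr15:78926725-78930465, each on the + strand. No annotated gene that shares exon bases with these genes had a count in any of the 12 libraries. Pseudogenes named after Lgals1 held 81 and 15 counts, and 1 named after S100a11 held 1 count, over the 12 libraries.

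Promoter sequence was available for 8 of the 10 genes in RefSeq (GRCm38.p6), all but S100a10 and Lgals1. The upstream bases below belong to 4 genes, Ahnak and Lmna, both lower in Tespa1-/- untreated and higher in Tespa1-/- after 5-FU, and Anxa2 and S100a11, which held the AP-1 letters upstream. They run 5′ to 3′ on the gene's own strand, cover the part of the 250 bases before the annotated start that lies in no annotated exon, and have in capitals every match to a motif searched on either strand. The stretch of Ahnak is chr19:8989034-8989283 on the + strand, that of Lmna chr3:88503387-88503602 on the - strand, inside the span of the gene given above and 1 of its 2 annotated starts in the table, the other without a match and not printed, that of S100a11 chr3:93520246-93520487 and that of Anxa2 chr9:69453433-69453619, both on the + strand.
Ahnak: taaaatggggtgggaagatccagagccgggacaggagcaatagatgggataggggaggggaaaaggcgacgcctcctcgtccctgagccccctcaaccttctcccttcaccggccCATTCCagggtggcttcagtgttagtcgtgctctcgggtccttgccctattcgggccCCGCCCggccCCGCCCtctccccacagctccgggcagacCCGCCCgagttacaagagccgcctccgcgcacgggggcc
Lmna: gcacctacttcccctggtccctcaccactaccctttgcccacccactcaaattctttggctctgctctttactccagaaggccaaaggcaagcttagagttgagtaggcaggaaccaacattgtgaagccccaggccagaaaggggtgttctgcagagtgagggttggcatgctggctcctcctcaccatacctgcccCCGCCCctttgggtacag
S100a11: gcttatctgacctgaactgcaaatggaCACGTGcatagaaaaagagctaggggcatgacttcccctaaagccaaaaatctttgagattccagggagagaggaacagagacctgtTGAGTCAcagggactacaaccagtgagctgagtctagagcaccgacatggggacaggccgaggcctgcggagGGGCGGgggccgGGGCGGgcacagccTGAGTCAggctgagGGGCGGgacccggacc
Anxa2: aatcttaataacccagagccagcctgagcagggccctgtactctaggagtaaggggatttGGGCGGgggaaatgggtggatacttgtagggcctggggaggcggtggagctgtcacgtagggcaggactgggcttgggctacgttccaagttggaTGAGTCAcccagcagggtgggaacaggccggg
The motifs were AP-1 (TGACTCA or TGAGTCA), the E-box (CACGTG), TEAD (GGAATG), the GC box (GGGCGG) and the CArG box of SRF, and none of these patterns shared letters with another in the 4 stretches. Positions are counted from the first base of the match, with -1 the last base before the start. In windows of 250 bases before to 50 after the start, AP-1 letters stood in 3 of the 8 genes, at -95 in Anxa2, at -136 and -38 in S100a11 and at 40 in Lmna, and in 5.95% of 27025 genes with a window. GC boxes were found in 4 of the 8, Ahnak, Lmna, S100a11 and Anxa2, and in 38.2% of genes. TEAD letters stood at -135 in Ahnak and -236 in Anxa1 and in 16.6% of genes. The E-box was found in 2 of the 8, S100a6 and S100a11, against 8.09% of genes, and the CArG box in 0 of the 8, against 1.81%. Such matches describe the letters of these windows and are not binding sites.

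Read totals on genes ran from 22118154 to 28275079 per library, with a median of 23401715. A level of 3 counts, taken as the limit of detection, was 0.107 to 0.136 CPM (read counts scaled to library size with TMM factors over the 12 libraries), a limit that covers counting error only. Reads of Tespa1 itself, the targeted gene, were at 46.5 ± 3.41 CPM (SD, n = 3) in untreated Tespa1+/+ and 34.8 ± 0.235 in untreated Tespa1-/-, and at 53.2 ± 5.37 and 19.3 ± 1.82 CPM after 5-FU. Which exons the allele removes is not given in the sources used here, so the reads that remain do not show whether intact transcript was left. Marker RNAs of the LSK gate were detected throughout, Kit at 342 to 467 and Ly6a, which encodes Sca-1, at 15.3 to 36.0 CPM as group means. Summed over 10 markers of the gate and of stem cells, the level was 1612 to 1679 CPM in untreated Tespa1+/+, 1348 to 1397 in untreated Tespa1-/-, 1364 to 1399 in Tespa1+/+ after 5-FU and 830.1 to 889 in Tespa1-/- after 5-FU. The sort removed cells with CD3e, CD11b, Gr-1, B220 or Ter-119 on their surface. Markers of several other cell types were still detected and were highest in Tespa1-/- after 5-FU. There, 10 neutrophil markers summed to 996 to 1003 CPM, against 2.31 to 12.8 in the other libraries, where 3 of them in untreated Tespa1+/+ (Camp, Ltf and Ly6g), 2 in untreated Tespa1-/- (Ly6g and Retnlg) and 1 in Tespa1+/+ after 5-FU (Retnlg) were at 0 in every library. Erythroid markers summed to 340.2 to 358 CPM in that group, against 19.4 to 28.1 in untreated Tespa1+/+, 51.9 to 59.3 in untreated Tespa1-/- and 45.5 to 59.3 in Tespa1+/+ after 5-FU. Basophil and mast cell markers came to 126 to 141 CPM against 17.1 to 40.4, and T and NK cell markers to 70.4 to 84.1 against 25.3 to 42.3. In Tespa1-/- after 5-FU all 10 neutrophil, 8 erythroid and 6 basophil and mast cell markers, and 9 of 11 T and NK cell markers, were above 3 counts in every library, while in the other groups 1 to 5 of the T and NK cell markers, among them Cd3d or Cd3e, were at 0 throughout, as was Fcer1a of the basophil list in both untreated groups. B cell markers were at 327 to 344 CPM in Tespa1-/- and 287 to 299 in Tespa1+/+ after 5-FU, against 42.2 to 48.2 and 64.1 to 77.1 untreated, and megakaryocyte markers at 259 to 270.4 and 180.2 to 199.6 against 77.6 to 83.9 and 48.4 to 53.9. Monocyte markers were at 479 to 504 CPM in Tespa1-/- and 336 to 368 in Tespa1+/+ untreated, and at 491 to 508 and 394 to 422 after 5-FU, and stromal and endothelial markers at 79.3 to 85.1 and 73.3 to 82.1 untreated and 39.6 to 55.0 and 55.7 to 60.3 after 5-FU. The part of these cells in the levels below was not tested. In bulk RNA, fewer cells of a type and less RNA per cell cannot be told apart.

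Per unit of transcript length, Lgals1 was the most abundant of the 10 genes in all 4 groups. Its deposited FPKM (fragments per kilobase of transcript, scaled to library size) was 85.8 ± 1.49 (SD, n = 3) in untreated Tespa1+/+ and 103 ± 3.81 in Tespa1-/- after 5-FU. Vim at 55.1 to 75.7 FPKM, S100a11 at 47.8 to 70.8 and S100a10 at 35.1 to 45.1 followed as group means. In Tespa1+/+ after 5-FU, the ranges of Vim and S100a11 overlapped, as did those of S100a11 and S100a10 there and in untreated Tespa1-/-. Ahnak, Anxa1 and Anxa2 held the middle, between 9.08 and 33.6 FPKM, and in 3 of the groups the libraries of these neighbours kept apart from each other and from S100a10. In Tespa1-/- after 5-FU, Anxa1 at 33.6 ± 1.20 FPKM reached into the range of S100a10 at 35.1 ± 2.02. Lmna at 2.06 to 6.41, S100a6 at 1.30 to 6.41 and S100a4 at 0.895 to 3.25 FPKM were lowest. Their libraries overlapped with the next in order in every group except for Lmna with S100a6 in untreated Tespa1+/+ and S100a6 with S100a4 in Tespa1-/- after 5-FU. S100a10, the partner of annexin A2, was above Anxa2 by this measure in every group.

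**Figure D1:**
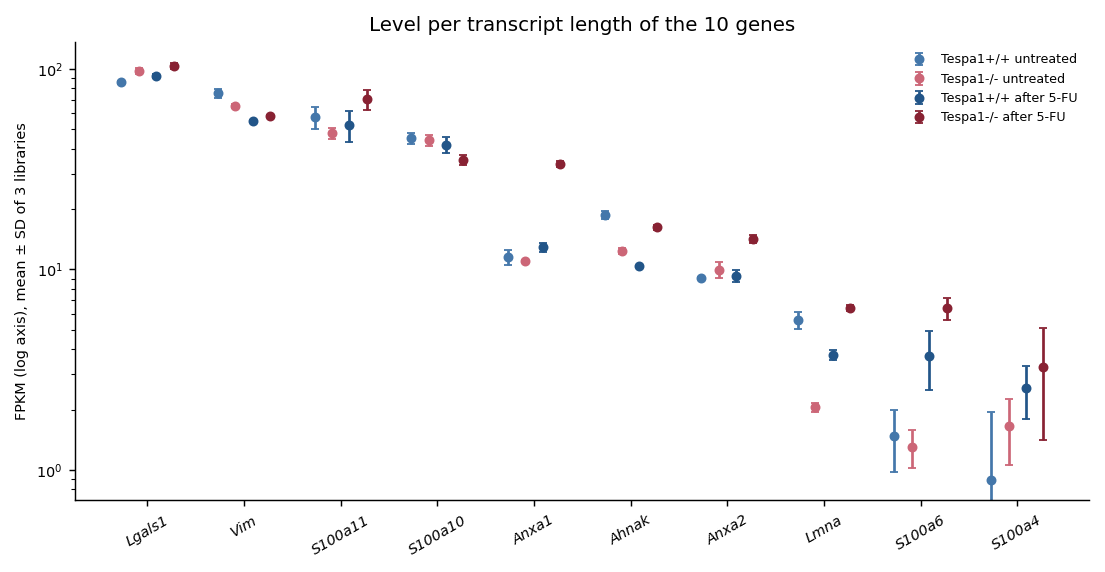
FPKM of the 10 genes on a log axis, in order of their mean over the groups. Points are means and bars the SD of 3 libraries per group, and the lower bar of S100a4 in untreated Tespa1+/+ runs off the axis because its SD of 1.05 exceeds its mean of 0.895. Lgals1 stands highest, and S100a6 and S100a4 lowest, in each group.

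Ahnak and Lmna, the scaffold and the lamin, were lower in Tespa1-/- than in Tespa1+/+ LSKs without the drug and higher at day 9 after it. Ahnak was at 362, 360.2 and 332 CPM in the untreated Tespa1+/+ libraries and at 221, 232 and 239 CPM in untreated Tespa1-/-. After 5-FU it was at 190.2, 186 and 189 CPM in Tespa1+/+ and at 311, 293 and 301 CPM in Tespa1-/-. So Tespa1-/- lay below Tespa1+/+ in untreated LSKs and above it after 5-FU, with no overlap of libraries in either comparison. Lmna was at 51.6, 61.4 and 53.1 CPM in untreated Tespa1+/+ and at 20.4, 21.2 and 19.2 CPM in untreated Tespa1-/-. At day 9 after 5-FU the Tespa1+/+ libraries held 38.4, 35.8 and 33.7 CPM of Lmna and the Tespa1-/- libraries 64.9, 63.6 and 60.2 CPM. Again the groups were apart in both comparisons. Vim had the same signs of the genotype difference in a narrower range. It was at 592, 569.7 and 634 CPM in untreated Tespa1+/+, at 524, 501 and 508 CPM in untreated Tespa1-/-, at 429, 419 and 418 CPM in Tespa1+/+ after 5-FU and at 456, 453 and 459.6 CPM in Tespa1-/- after 5-FU. Both groups after 5-FU lay below both untreated groups.

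Anxa1 and Anxa2 were close to level in 3 groups and high in Tespa1-/- after 5-FU. Anxa1, whose product holds back inflammation and binds formyl peptide receptors on myeloid cells, was at 40.1, 47.9 and 43.3 CPM in untreated Tespa1+/+ and 41.9, 41.3 and 42.3 CPM in untreated Tespa1-/-. It stood at 50.5, 44.9 and 47.0 CPM in Tespa1+/+ after 5-FU and at 128, 122 and 129.9 CPM in Tespa1-/- after 5-FU. Every library of that last group was above every other library of the series. Anxa2, which links Ahnak and S100a10 to membranes, was at 37.7, 37.4 and 37.6 CPM in untreated Tespa1+/+ and 39.5, 44.8 and 37.9 CPM in untreated Tespa1-/-. After 5-FU it was at 40.2, 34.7 and 37.1 CPM in Tespa1+/+ and 55.3, 58.6 and 60.5 CPM in Tespa1-/-, again above all others.

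The S100 genes did not move as one. S100a10, the annexin A2 ligand, had its lowest levels where Anxa2 had its highest, with 53.4, 58.3 and 59.4 CPM in Tespa1-/- after 5-FU. It was at 60.3, 66.8 and 71.8 CPM in Tespa1+/+ after 5-FU and between 66.5 and 76.9 CPM in the 6 untreated libraries. S100a11, the partner of annexin A1, was at 27.7, 27.4 and 34.2 CPM in untreated Tespa1+/+ and 23.2, 24.1 and 26.3 CPM in untreated Tespa1-/-, and at 21.2, 30.1 and 27.4 CPM in Tespa1+/+ and 35.9, 40.7 and 32.2 CPM in Tespa1-/- after 5-FU. Its groups at each treatment kept apart, by a small margin. S100a6 (calcyclin), known from dividing cells, was at 3.25, 1.78 and 3.67 CPM in untreated Tespa1+/+ and 3.03, 1.95 and 2.57 CPM in untreated Tespa1-/-. It was at 5.11, 9.52 and 6.44 CPM in Tespa1+/+ after 5-FU and 11.2, 14.3 and 11.7 CPM in Tespa1-/- after 5-FU, so that both groups after 5-FU lay above the untreated libraries. S100a4, known from motile cells, had 15 to 116 counts in 11 of the libraries. It was at 0.535 and 1.73 CPM in 2 untreated Tespa1+/+ libraries and had 0 counts in the third, which allows up to 0.136 CPM, and the 3 libraries of untreated Tespa1-/- held 1.80, 1.55 and 0.829 CPM. After 5-FU, S100a4 was at 1.60, 2.77 and 1.90 CPM in Tespa1+/+ and 2.05, 4.49 and 1.63 CPM in Tespa1-/-, and the groups overlapped. Lgals1 was at 69.0, 70.9 and 68.7 CPM in untreated Tespa1+/+ and 75.4, 78.8 and 80.9 CPM in untreated Tespa1-/-, and at 71.5, 73.9 and 71.6 CPM in Tespa1+/+ and 86.0, 80.0 and 82.6 CPM in Tespa1-/- after 5-FU. Tespa1-/- lay above Tespa1+/+ without overlap in both treatments.

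**Figure D2:**
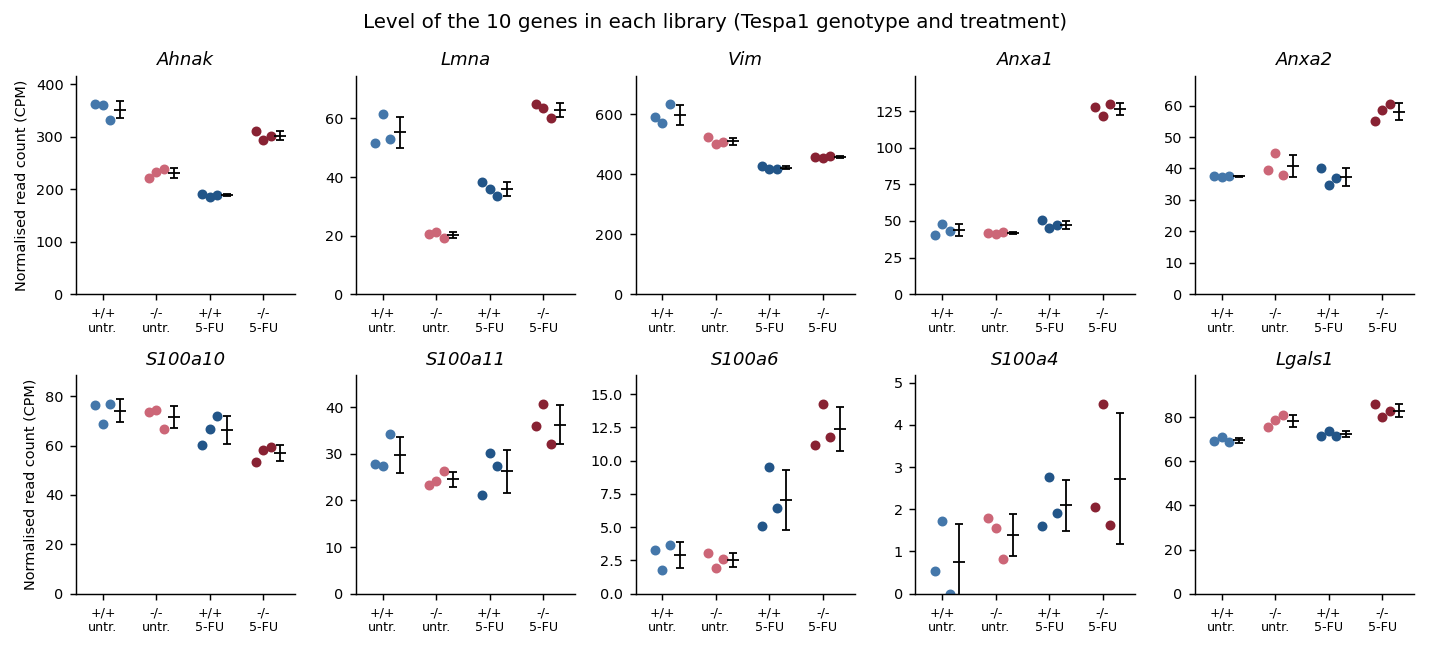
Normalised read count (CPM) of each gene in the 12 libraries, on linear axes from 0 with a scale of its own per gene. Dots are libraries, and the bar beside them gives the mean and SD of the 3 libraries of a group (untr., untreated). The lower bar of S100a4 in untreated Tespa1+/+ is clipped at 0. The upper left panels show Ahnak and Lmna lower in Tespa1-/- untreated and higher in Tespa1-/- after 5-FU, and the Anxa1 panel shows 122 to 129.9 CPM in the last group against 40.1 to 50.5 in the others.

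All 10 genes together took 0.123 to 0.126% of the counts in untreated Tespa1+/+, 0.101 to 0.102% in untreated Tespa1-/- libraries, 0.0922 to 0.0924% in Tespa1+/+ after 5-FU and 0.118 to 0.120% in Tespa1-/- after 5-FU. Ahnak and Vim held most of these counts, but the shares did not follow these genes alone. From untreated to treated Tespa1-/-, mean Ahnak went from 231 to 302 CPM and Vim from 511 to 456. Anxa1 went from 41.8 to 127 CPM and Lmna from 20.3 to 62.9.

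To describe how the genotype mattered in the absence of stress, untreated Tespa1-/- LSKs were compared with untreated Tespa1+/+ LSKs. Lmna was lower by the most, with a log2 fold change of -1.45 ± 0.10 (SE), and Ahnak was at -0.61 ± 0.05. Among the others, S100a11 was at -0.28 ± 0.12, Vim at -0.23 ± 0.05, S100a6 at -0.20 ± 0.35, Anxa1 at -0.06 ± 0.09 and S100a10 at -0.05 ± 0.08. Lgals1 was at 0.17 ± 0.06, Anxa2 at 0.12 ± 0.09 and S100a4 at 0.88 ± 1.02. Fold changes are those of edgeR's quasi-likelihood fit, and a gene was called at a Benjamini-Hochberg adjusted p below 0.05 with a fold change above 1.5. Of the 10 genes, 2 (Lmna and Ahnak) were past this rule, both lower, as were 2.51% of the 17055 genes tested in either direction and 1.54% in the lower direction. Ahnak lay close to the fold threshold and fell short of it without untreated Tespa1+/+ library 1, at -0.58, or without Tespa1-/- library 1, also at -0.58. Over all genes, the 428 calls fell to 224, 216 and 218 without Tespa1-/- library 1, 2 or 3. In 6 of the 10 genes the libraries did not overlap, as in 25.6% of all genes. The median log2 fold change of the 10 was -0.13, against 0.01 over all genes tested. In the same comparison 3 of 7 B cell markers tested (Cd79a, Ebf1 and Pax5) and 1 of 10 of the gate and of stem cells (Mecom) were called lower in Tespa1-/-, and 1 of 9 monocyte (F13a1), 1 of 6 megakaryocyte (Itga2b) and 2 of 7 erythroid markers (Ermap and Car1) higher, and their part in the differences of the 10 genes was not tested. Because the genes were picked with results of these libraries known, these values describe them and test nothing.

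At day 9 after 5-FU, the comparison of Tespa1-/- with Tespa1+/+ gave Anxa1 the largest difference, a log2 fold change of 1.41 ± 0.08. S100a6 was at 0.81 ± 0.25, Lmna at 0.80 ± 0.09, Ahnak at 0.68 ± 0.05, Anxa2 at 0.63 ± 0.10 and S100a11 at 0.46 ± 0.15. S100a4 was at 0.38 ± 0.47, Lgals1 at 0.19 ± 0.07, Vim at 0.11 ± 0.04 and S100a10 at -0.22 ± 0.09. Anxa1, Lmna, Ahnak and Anxa2 were past the call rule, 4 of 10 and all higher, beside 6.98% of the 17239 genes tested and 3.95% in the higher direction. S100a6 was past it without Tespa1+/+ library 2, the highest of its group, at 1.10, and also by DESeq2, at 0.81. Libraries did not overlap in 9 of the 10 genes, all but S100a4, and in 33% of all genes, with a median log2 fold change of 0.55 against -0.01. In the same comparison 8 of 10 neutrophil, 8 of 8 erythroid, 6 of 6 basophil and mast cell and 4 of 10 T and NK cell markers tested were called higher, and 5 of 10 markers of the gate and of stem cells lower, in Tespa1-/-. Of 9 monocyte markers 1 (F13a1) was called higher and 1 (Ms4a6c) lower, and 1 of 8 stromal and endothelial markers (Emcn) lower, and their part in the differences of the 10 genes was not tested.

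The response to 5-FU was read within each genotype. In Tespa1+/+ LSKs, Ahnak was lower after 5-FU with a log2 fold change of -0.90 ± 0.06, as were Lmna at -0.62 ± 0.11 and Vim at -0.50 ± 0.05, while S100a6 was at 1.28 ± 0.36 and S100a4 at 1.47 ± 1.01. Values of the rest lay from -0.18 ± 0.16 for S100a11 to 0.12 ± 0.11 for Anxa1. Past the call rule were 2 of 10, Ahnak and Lmna, beside 4.43% of 17002 genes and 1.69% in the lower direction. Lmna missed the fold threshold without untreated Tespa1+/+ library 2, at -0.54, and without Tespa1+/+ library 3 after 5-FU, at -0.58. S100a6 was past the rule by DESeq2 and in the fit of all 12 libraries, both at 1.28. In 5 of the 10 genes the libraries did not overlap, as in 28.5% of all genes. Of the markers tested, 7 of 7 B cell, 4 of 6 megakaryocyte, 3 of 7 erythroid and 2 of 6 neutrophil were called higher after 5-FU. So were 2 of 5 basophil and mast cell and 2 of 9 monocyte markers. Of 10 markers of the gate and of stem cells, 2 (Mecom and Slamf1) were called higher and 1 (Flt3) lower. The part of these markers in the differences of the 10 genes was not tested.

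In Tespa1-/- LSKs, Ahnak and Lmna had the opposite sign. S100a6 was higher after 5-FU with a log2 fold change of 2.28 ± 0.22, Lmna with 1.62 ± 0.08 and Anxa1 with 1.58 ± 0.06. S100a4 was at 0.95 ± 0.48, S100a11 at 0.55 ± 0.11, Anxa2 at 0.50 ± 0.09, Ahnak at 0.38 ± 0.05 and Lgals1 at 0.07 ± 0.06. Vim at -0.18 ± 0.04 and S100a10 at -0.34 ± 0.08 were lower. The first 3 were past the call rule, beside 10.1% of 17228 genes tested and 6% in the higher direction, and S100a11 joined them without untreated Tespa1-/- library 3, at 0.60, or without Tespa1-/- library 3 after 5-FU, at 0.63. Libraries of 8 of the 10 genes did not overlap, as was so for 38.6% of all genes. Neutrophil, erythroid, basophil, T and NK cell, B cell and megakaryocyte marker sums were higher after 5-FU in Tespa1-/- as given above. The sums of the gate and stem cell markers and of the stromal and endothelial markers were lower. In Tespa1+/+ all of these sums differed in the same directions. Their part in the differences of the 10 genes was not tested. These comparisons share the untreated and the treated libraries with those between genotypes, so they are not further evidence for the same pattern.

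The difference between the genotype effects, after 5-FU minus untreated, was estimated over all 12 libraries. It was 2.26 ± 0.13 on the log2 scale for Lmna, 1.48 ± 0.11 for Anxa1 and 1.29 ± 0.07 for Ahnak, the 3 genes past the call rule, where 3.21% of 18696 genes were called and 1.66% in the higher direction. S100a6 was at 1.02 ± 0.43, S100a11 at 0.74 ± 0.20, Anxa2 at 0.52 ± 0.13, Vim at 0.34 ± 0.06 and Lgals1 at 0.02 ± 0.09. S100a10 at -0.17 ± 0.12 and S100a4 at -0.50 ± 1.16 had the other sign. Without 1 library S100a11 (at 0.84 without Tespa1+/+ library 2 after 5-FU, and at 0.74 by DESeq2 over all libraries) or Anxa2 (at 0.59 without untreated Tespa1-/- library 2) was also past the rule. For Lmna and Ahnak the sum joins a lower level in untreated Tespa1-/- and a higher one after 5-FU, and for Anxa1 it comes from the 5-FU groups, since the untreated difference was -0.06 ± 0.09.

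**Figure D3:**
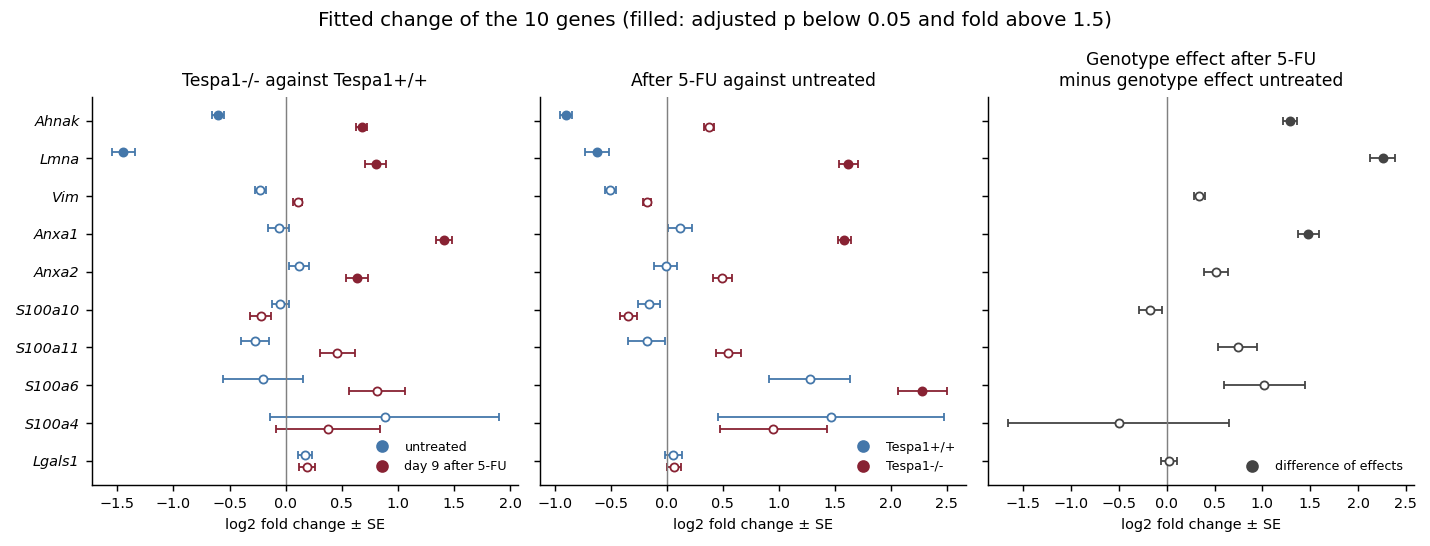
Fitted log2 fold change of the 10 genes with its SE, between genotypes (left), after 5-FU against untreated (middle) and for the difference of the genotype effects (right). Filled points are past an adjusted p below 0.05 and a fold above 1.5, 2 and 4 genes on the left, 2 and 3 in the middle and 3 on the right. Ahnak and Lmna sit left of 0 in untreated and right of 0 after 5-FU.

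Other genes of the same families were then examined. They formed 7 lists of 106 genes, 104 of them in the table, that were compiled by family and function, with earlier results of these libraries known, and share none of the 10. Their counts and shares therefore describe the lists and test nothing about them, while each adjusted p is that of a single gene among all genes tested. In untreated LSKs, 1 of 81 related genes tested differed between genotypes (1.23%, beside 2.51% of all genes), with a median log2 fold change of -0.10. It was Trim72, a membrane repair protein that binds dysferlin, with 3.89, 4.75 and 5.07 CPM in Tespa1+/+ and 1.97, 1.60 and 1.18 CPM in Tespa1-/-. Its log2 fold change was -1.52 ± 0.29 with an adjusted p of 0.0234 (edgeR, Benjamini-Hochberg). Of 6 fits without 1 library, 5 lost the call, all but that without Tespa1+/+ library 1, with adjusted p from 0.00153 to 0.112 over its alternatives. The B-type lamins, named after their values were seen, were at -0.02 ± 0.04 (Lmnb1) and 0.14 ± 0.07 (Lmnb2), with adjusted p of 0.902 and 0.353 in the same edgeR fit. Of 27 actin cytoskeleton and adhesion genes, 24 had a fold change below 0, as had 8327 of all 17055 genes tested, and none passed the rule. Without the fold threshold 8 had an adjusted p below 0.05, all lower, as had 612 of all genes in that direction.

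At day 9 after 5-FU, 10 of 78 related genes tested differed between genotypes, 7 higher and 3 lower in Tespa1-/- (12.8%, beside 6.98% of all genes, with a median of 0.05). Of 4 other S100 genes tested, S100a8 and S100a9, the subunits of calprotectin, rose. S100a8 was at 0.780, 0.154 and 0.413 CPM in Tespa1+/+ and 126, 125 and 140.1 CPM in Tespa1-/-, and S100a9 at 1.64, 0.925 and 1.32 against 328, 311 and 309 CPM. Both genes are also on the neutrophil list, of which 8 of 10 were called higher. Their log2 fold changes were 8.16 ± 0.27 and 7.92 ± 0.14, with adjusted p of 3.2e-07 and 4.9e-09 (edgeR, Benjamini-Hochberg). S100a1 and S100a13, the other 2 tested and named after their values were seen, were at 0.21 ± 0.22 and 0.19 ± 0.16. Lgals3, a galectin of macrophages and other myeloid cells, rose from 0.858, 0.308 and 0.620 CPM to 9.03, 7.44 and 6.91 CPM, by 3.70 ± 0.39 with an adjusted p of 3.1e-04 in the same edgeR fit.

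Among 7 other annexins tested after 5-FU, Anxa3, an annexin of neutrophil granules, was at 18.9, 21.5 and 17.9 CPM in Tespa1+/+ and 51.2, 49.1 and 35.4 CPM in Tespa1-/-, with a log2 fold change of 1.22 ± 0.16 and an adjusted p of 0.0011 (edgeR). Anxa4 was lower, with 16.4, 16.7 and 17.0 against 10.8, 11.7 and 10.3 CPM, a log2 fold change of -0.61 ± 0.15 and an adjusted p of 0.027 (edgeR). That call was lost in all 6 fits without 1 library and in 8 of 11 alternatives, with adjusted p from 0.0042 to 0.095. Both genes share exon bases with a neighbouring gene, of 405 counts for Anxa3 and 3 for Anxa4 over the 12 libraries, so some of their reads could belong there. Trim72, Sun2, Dst, Actn1 and Cnn3 also share exon bases with genes on the opposite strand, of at most 283 counts each over the 12 libraries.

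Of 15 genes of the nuclear lamina and envelope, 1 passed the rule after 5-FU. Syne1, which encodes nesprin-1 and ties the nucleus to actin, was at 114, 129.7 and 126 CPM in Tespa1+/+ and 361, 393 and 357 CPM in Tespa1-/-, with a log2 fold change of 1.58 ± 0.07 and an adjusted p of 1.0e-06 (edgeR). The B-type lamins changed by less than 1.5-fold, Lmnb1 by 0.26 ± 0.04 and Lmnb2 by 0.41 ± 0.08 on the log2 scale, with adjusted p of 0.0015 and 0.0099 from the same edgeR fit. The intermediate filament linker Dst (dystonin) was lower, at 147, 117 and 136 CPM against 247, 242 and 235 CPM, with a log2 fold change of -0.86 ± 0.08 and an adjusted p of 1.9e-04 (edgeR). Myof (myoferlin), a ferlin of membrane fusion and repair, was lower too, at 25.7, 15.2 and 23.4 against 40.2, 44.0 and 42.9 CPM, with -0.99 ± 0.18 and an adjusted p of 0.0071 (edgeR). In the actin list, 2 of 27 genes were called. Actn1 (alpha-actinin 1), a crosslinker of actin, rose by 0.96 ± 0.12 to 48.1, 44.7 and 44.7 CPM, and Tmsb4x (thymosin beta-4), which holds actin monomers, rose by 0.72 ± 0.06 to 257, 269.9 and 275 CPM, with adjusted p of 8.7e-04 and 6.7e-05 (edgeR).

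**Figure D4:**
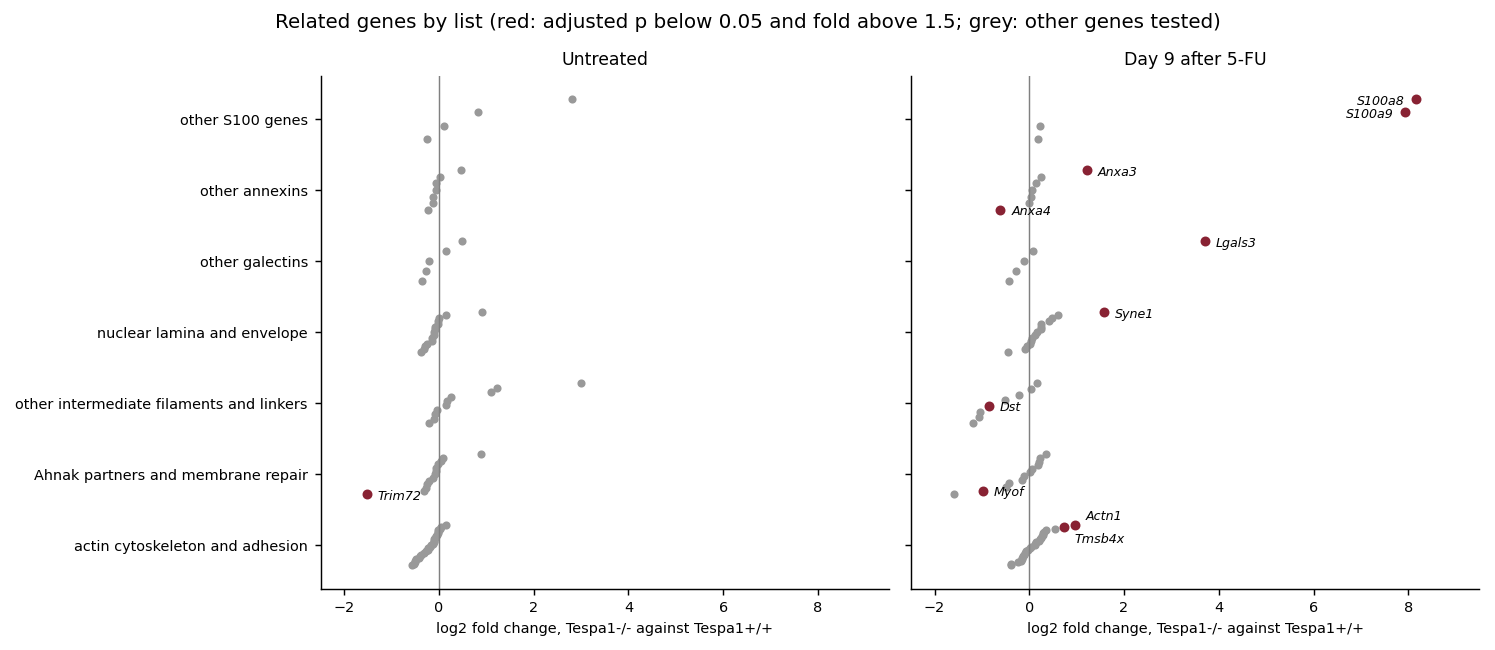
Fitted log2 fold change of Tespa1-/- against Tespa1+/+ for the genes of 7 related lists, untreated (left) and at day 9 after 5-FU (right), each dot a gene and each row a list. Red dots carry their symbols and are past an adjusted p below 0.05 and a fold above 1.5, 1 gene untreated and 10 after 5-FU, with S100a8 at 8.16 and S100a9 at 7.92 farthest from 0.

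Within Tespa1+/+, 7 of 78 related genes changed with 5-FU, 3 up and 4 down (8.97%, beside 4.43% of all genes). Cd44, the hyaluronan receptor of stem and progenitor cells, fell from 326, 346 and 402 to 154, 166 and 169 CPM, by -1.14 ± 0.08 on the log2 scale with an adjusted p of 6.8e-05 (edgeR). Dst rose by 0.68 ± 0.08 with an adjusted p of 9.8e-04, and Tpm1, a tropomyosin, by 0.64 ± 0.11 with an adjusted p of 0.0069, both by edgeR. Tpm1 missed the fold threshold without untreated library 2 or treated library 2, at 0.57 and 0.56. Cavin1 at 0.91 ± 0.22, Trim72 at -2.10 ± 0.51 and Tpm2 at -1.16 ± 0.30 were called with adjusted p of 0.037, 0.038 and 0.047 by edgeR, and each call was lost in 5 of 6 fits without 1 library, with adjusted p of up to 0.131, 0.133 and 0.142. The calls held without untreated library 3 for Cavin1, without treated library 1 for Trim72 and without untreated library 2 for Tpm2.

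In Tespa1-/- LSKs, 16 of 81 related genes changed with 5-FU, 11 up and 5 down (19.8%, beside 10.1%). S100a8, S100a9 and Lgals3 rose by 8.18 ± 0.17, 8.13 ± 0.21 and 3.60 ± 0.38 on the log2 scale from levels of at most 1.73 CPM. Syne1 rose from 88.9, 86.8 and 96.8 CPM in untreated Tespa1-/-, by 2.02 ± 0.06, with an adjusted p of 1.9e-07 (edgeR). Sun2, the inner nuclear membrane protein that binds lamin A and nesprins, rose by 0.63 ± 0.09 from 206, 197 and 236 to 292, 347 and 358 CPM with an adjusted p of 0.0017 (edgeR). It missed the fold threshold at 0.57 without untreated library 2 and without treated library 3. Cd44 fell by -0.84 ± 0.09, Myof by -1.07 ± 0.18, Anxa4 by -0.63 ± 0.13 and Cnn3, a calponin, by -0.61 ± 0.10, while Actn1 rose by 1.07 ± 0.08, Tpm1 by 0.76 ± 0.11 and Anxa3 by 0.67 ± 0.14, all with adjusted p below the threshold in the edgeR fit. Of these, Cnn3 missed the fold threshold without untreated or treated library 2, at -0.56 and -0.55, and Anxa3 without treated library 1, at 0.57.

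The test of the difference between the genotype effects called 10 of 83 related genes, 8 higher and 2 lower (12%, beside 3.21% of all genes). Syne1 had a difference of 1.68 ± 0.12 on the log2 scale, Actn1 of 1.23 ± 0.19, Tmsb4x of 0.78 ± 0.08 and Sun2 of 0.63 ± 0.12, with adjusted p of 4.5e-06, 0.0024, 8.0e-05 and 0.0087 (edgeR). Sun2 fell short of the fold threshold in 4 of 12 fits without 1 library, at 0.58 without untreated Tespa1-/- library 2 or treated Tespa1-/- library 2, at 0.57 without treated Tespa1+/+ library 3 and at 0.56 without treated Tespa1-/- library 3. Dst, at -0.64 ± 0.12 with an adjusted p of 0.0070 by edgeR, fell short in 2 of 12, at -0.58 without untreated Tespa1+/+ library 3 and at -0.57 without treated Tespa1-/- library 2. The differences of S100a8, S100a9 and Lgals3 rest on few counts in the untreated libraries. S100a8 at 7.28 ± 1.35 dropped to 1.72 ± 5.25 (SE) without untreated Tespa1+/+ library 2, which held all its counts in that group, and S100a9 at 5.20 ± 1.01 dropped to 3.44 ± 1.79 without library 1. Lgals3 at 3.22 ± 0.83 and Myof at -0.86 ± 0.23 lost the call in 9 and 10 of 12 such fits, with adjusted p of up to 0.120 and 0.119. Those of Lgals3 held without untreated Tespa1+/+ library 3, untreated Tespa1-/- library 1 or treated Tespa1+/+ library 1, and those of Myof without treated Tespa1-/- library 1 or 2.

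The genes whose levels ran closest to the mean profile of the 10 were ranked by the root mean square difference of log2(CPM + 1), each gene centred on its own mean over the 12 libraries. Without the drug that mean profile was -0.07 for Tespa1+/+ and -0.26 for Tespa1-/-, and after 5-FU it was -0.09 and 0.41. Among 9426 other genes of at least 10 CPM, the closest were Trak2 (difference 0.0708), Mki67 (0.0803), Ctsb (0.0867), Polg (0.0917), Clspn (0.0936), Grk6 (0.0936), Neil3 (0.0971), Odf2 (0.100), Tpx2 (0.101) and Hdgf (0.102). The 10 genes themselves were farther from their own mean, at 0.149 for S100a11 and 0.155 for Anxa2 to 0.637 for S100a6, and Ahnak and Lmna were at 0.338 and 0.456.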

How the data were processed

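Poly-A RNA of sorted LSKs was sequenced as stranded, paired-end libraries, 3 per group. The authors mapped reads to GRCm38 with HISAT2 and assembled and quantified transcripts with StringTie, as named in the submitters' processing notes, which also give CASAVA 1.8 and edgeR. The deposited table holds, per gene and library, raw read counts and FPKM, which the authors normalised for gene length and library size. How reads were assigned to genes, and whether strand was used, is not given in the sources used here. Columns of the authors' own comparisons were not used.

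Counts were filtered with filterByExpr, scaled by TMM and tested with edgeR 4.0.16 (quasi-likelihood F test) in R 4.3.3, in 5 comparisons: genotype untreated, genotype after 5-FU, 5-FU within each genotype (6 libraries each) and the interaction (12 libraries). Benjamini-Hochberg adjustment ran over every gene in a fit. SE was the log2 fold change divided by the root of F. FPKM served only for levels between genes and CPM for 1 gene between libraries. The table holds 22118154 to 28275079 counts per library.

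The 10 genes and the gene lists were chosen with earlier results of these data known, so the 10 carry no p-values and counts over the lists are descriptions. Related genes were named, up to 2 per list, comparison and direction, by size of log2 fold change among those called with a mean of at least 1 CPM. Replicate libraries differed by more than sampling noise (median chi-square per gene 2.08 to 5.87, against 0.455 for sampling alone). Alternatives were DESeq2 1.42.0, RLE factors, no filter, a replicate block, all 12 libraries in 1 fit, no fold threshold, unadjusted p and leaving out each library. Promoters came from RefSeq (GRCm38.p6). The scripts were tested on simulated counts.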

Additional observations from a re-analysis of the deposited data

Results flagged for a closer look

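The genotype effect differed between untreated LSKs and LSKs at day 9 after 5-FU for 3 of the 10 genes and 10 of 83 related genes tested, by the interaction term of the edgeR fit over 12 libraries, which called 3.21% of 18696 genes. Expressed as the effect after 5-FU minus the effect untreated, on the log2 scale, it was 2.26 for Lmna, 1.48 for Anxa1 and 1.29 for Ahnak, which were chosen with results of these libraries known. For related genes it was 7.28 for S100a8, 5.20 for S100a9, 3.22 for Lgals3, 1.68 for Syne1, 1.23 for Actn1, 0.78 for Tmsb4x and 0.63 for Sun2, and -0.64 for Dst and -0.86 for Myof. S100a8 dropped to 1.72 without untreated Tespa1+/+ library 2 and S100a9 to 3.44 without untreated Tespa1+/+ library 1, both no longer called, and Lgals3 and Myof lost the call in 9 and 10 of 12 fits without 1 library. Vcl (vinculin), named after its values were seen, was at 0.65. It shares 2090 exon bases with Ap3m1 on the opposite strand, which held 6498 counts over the 12 libraries, and single libraries were not left out for it. Neutrophil markers, on which list S100a8 and S100a9 stand, summed to 996 to 1003 CPM in Tespa1-/- after 5-FU and to at most 12.8 CPM in the other libraries, and their part in these differences was not tested.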

How the results depend on the processing

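Over the alternative fits (11 per gene, 16 for the interaction), single values of the 10 genes kept their direction and their side of the call rule in 578 cases, gained the call in 10, lost it in 4 and changed sign in 8, none of them a called value. The sign changes came without 1 library. Leaving out each library in turn, the log2 fold change of Anxa1 untreated ran from -0.12 to 0.0057 (without Tespa1+/+ library 2), that of S100a4 after 5-FU from -0.19 (without Tespa1-/- library 2) to 0.64, and that of Anxa2 for 5-FU in Tespa1+/+ from -0.066 to 0.041 (without treated library 2). The interaction ran from -1.91 to 0.071 (without untreated Tespa1+/+ library 3) for S100a4 and from -0.021 to 0.047 for Lgals1, with -0.0047, -0.00074, -0.0027 and -0.021 without untreated Tespa1-/- library 1, treated Tespa1+/+ library 1, treated Tespa1+/+ library 3 and treated Tespa1-/- library 1. The related genes named by the rule kept the call in 396 cases and lost it in 67, and other called related genes were not followed gene by gene.

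With no fold threshold, genes called over the whole table were 892 (untreated), 2261 (after 5-FU), 1352 (5-FU in Tespa1+/+), 3336 (5-FU in Tespa1-/-) and 936 (interaction), related genes 11, 23, 16, 32 and 20, and of the 10 genes 8 for 5-FU in Tespa1-/- and 5 for the interaction. By unadjusted p with the fold threshold, 1149, 2023, 1679 and 1941 genes were called for the untreated genotype, treated genotype, Tespa1+/+ and interaction comparisons, with 4 related genes untreated, 11 in Tespa1+/+ and 16 for the interaction, and 5 of the 10 genes for the interaction. DESeq2 called 2 related genes untreated and 963 genes for the interaction. Without the filter on low counts the median of all genes was 0.22 untreated and -0.38 for 5-FU in Tespa1-/-, where 0.01 and -0.01 stood before, since genes of few counts entered. Leaving out 1 library gave 216 to 411, 922 to 1046, 513 to 693, 1363 to 1737 and 407 to 576 genes for the 5 comparisons, 1 to 2, 4 to 5, 1 to 2, 3 to 4 and 3 to 4 of the 10 genes, and 0 to 3, 9 to 10, 3 to 6, 14 to 17 and 7 to 9 related genes. The share of higher calls untreated, 38.8%, was 23.4% without Tespa1-/- library 3.

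Replicate numbers are shared between groups, but libraries of the same number did not deviate together (correlations from -0.0566 to 0.0253 over 12 pairs), so they share only a number. With the replicate block, the untreated comparison called 256 genes, 74 higher and 182 lower, in place of 428, and 0 related genes in place of 1. Between genotypes after 5-FU, S100a6 gained the call, at 0.85, and Anxa4 lost it, with an adjusted p of 0.068 (edgeR). Trim72 and Tpm2 lost it for 5-FU in Tespa1+/+ and Myof for the interaction, with adjusted p of 0.067, 0.1185 and 0.067 (edgeR). The causes of these changes were not tested. S100a4 had 0 to 116 counts per library, and its differences did not pass the call rule in any alternative fit.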

Other observations

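Ahnak and Lmna were 2 of 10 genes called lower in untreated Tespa1-/- and higher in Tespa1-/- after 5-FU, among 16341 genes tested in both comparisons, which share no library. The untreated calls over the whole table, 428, fell to 216 to 224 without 1 of the Tespa1-/- libraries, Ahnak lost its untreated call in 2 of 6 fits without 1 library, and no library was left out for the 8 genes other than Ahnak and Lmna. Of 117 genes called in both, 106 had the same direction and 1, Ttn, the other order. The 8 further genes, named after their values were seen, included Thbs1 (thrombospondin-1), at 19.7 ± 3.14 CPM (SD, n = 3) in Tespa1+/+ and 3.65 ± 1.43 in Tespa1-/- untreated and at 13.9 ± 1.72 and 30.8 ± 4.89 after 5-FU. Klf5, a transcription factor, was at 6.50 ± 2.28 and 2.45 ± 0.544 CPM untreated and 1.94 ± 0.698 and 5.23 ± 1.11 after 5-FU. Dgat1, an enzyme of triglyceride synthesis, was at 19.7 ± 3.30 and 11.7 ± 1.02 CPM untreated and 10.2 ± 0.238 and 18.6 ± 1.68 after 5-FU. The other 5 were Jchain, Ighv1-81, Igkv4-68 and Ighv1-55, the last 3 with 0 counts in every Tespa1+/+ library after 5-FU, and Igkc, the immunoglobulin kappa constant region, at 53.5 ± 6.02 and 23.5 ± 1.53 CPM untreated and 16.4 ± 2.73 and 51.4 ± 3.67 after 5-FU.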
